A study of Mus musculus with 10 samples.

Results

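The distribution of H3K4me3 over the autosomes of *Setd1b* conditional knockout (cKO) germinal vesicle (GV) oocytes was measured against input chromatin of the same genotype, in non-overlapping windows of 5 kb. The windows compared were those on chromosomes 1 to 19, which made 492344 of the 544879 windows of the table, and 476890 of them held at least 1 read in the 5 cKO libraries. H3K4me3 was profiled in cKO replicates 1, 3 and 4, and input, the same kind of chromatin sequenced without immunoprecipitation, in replicates 1 and 4. All 5 libraries came from females of 21 days on the C57BL6 strain (C57BL/6OlaHsd in the study's methods) that were Setd1b floxed/floxed and carried the Gdf9-Cre transgene, and each library was made from a pool of approximately 200 oocytes. The WT libraries, used here at the *Gdf9* and *Setd1b* loci and in the test of the genotypes, were 3 of H3K4me3 and 2 of input from Setd1b floxed/floxed oocytes negative for Gdf9-Cre. Cre is expressed from the *Gdf9* promoter in oocytes from early stages of follicle growth, so SETD1B was removed in the germ cell and not in the surrounding follicle, and oocytes with and without the mark at a locus cannot be told apart within a pool. In the study's methods, wild-type females could also carry other combinations of *Setd1b* alleles and Cre, which the labels do not give.

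H3K4me3 is the trimethylated form of lysine 4 of histone H3 and marks the promoters of transcribed genes and unmethylated CpG islands in most cells. It is laid down by enzymes of the COMPASS family, which include SETD1A, SETD1B and the MLL proteins, and several of them are brought to CpG-rich DNA by subunits with a CXXC zinc finger, such as CXXC1. In growing oocytes a second, broad form of the mark spreads outside promoters over regions without DNA methylation, and is known to depend on MLL2, the product of *Kmt2b*. DNA methylation, which in the oocyte is laid over transcribed gene bodies and over the imprinting control regions methylated on the maternal allele, and H3K4me3 are known to be largely exclusive of each other.

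To show the kind of sequence on which the mark was high or low, 5 promoters are given from RefSeq (build GRCm38.p6), each 300 bases from 250 bases before to 50 bases after the start, 5′ to 3′ on the strand of the gene, with CG dinucleotides in capitals. *Mex3b* and *Cux1* lay in the promoter windows with the largest differences over input, *Olfr292* in an olfactory receptor window below input, and *Peg3* and *Meg3* are imprinted genes whose control regions are methylated in the oocyte and in sperm, respectively. Of the 11 promoters named below for the largest differences, 8 had a start in this table within their window. The sequences lie at chr7:82867083-82867382 (+ strand, *Mex3b*), chr5:136565932-136566231 (− strand, *Cux1*), chr7:86688091-86688390 (+ strand, *Olfr292*), chr7:6730370-6730669 (− strand, *Peg3*) and chr12:109540746-109541045 (+ strand, *Meg3*).
Mex3b: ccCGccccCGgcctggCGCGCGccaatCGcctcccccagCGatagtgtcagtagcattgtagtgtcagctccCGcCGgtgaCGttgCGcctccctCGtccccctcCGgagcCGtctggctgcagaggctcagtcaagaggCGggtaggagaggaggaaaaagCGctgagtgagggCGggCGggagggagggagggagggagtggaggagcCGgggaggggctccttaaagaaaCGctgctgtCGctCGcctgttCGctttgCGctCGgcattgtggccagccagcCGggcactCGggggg
Cux1: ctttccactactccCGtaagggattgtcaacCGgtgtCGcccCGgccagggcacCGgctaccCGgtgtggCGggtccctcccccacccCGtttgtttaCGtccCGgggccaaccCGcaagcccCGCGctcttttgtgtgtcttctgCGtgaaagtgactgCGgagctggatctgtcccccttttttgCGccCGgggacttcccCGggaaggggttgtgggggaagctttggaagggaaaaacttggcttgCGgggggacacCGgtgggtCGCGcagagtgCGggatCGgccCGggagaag
Olfr292: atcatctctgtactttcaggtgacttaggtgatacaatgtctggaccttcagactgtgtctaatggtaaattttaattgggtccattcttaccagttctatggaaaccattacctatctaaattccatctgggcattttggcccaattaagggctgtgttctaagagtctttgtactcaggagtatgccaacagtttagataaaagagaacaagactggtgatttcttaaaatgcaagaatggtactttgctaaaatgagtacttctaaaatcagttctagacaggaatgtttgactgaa
Peg3: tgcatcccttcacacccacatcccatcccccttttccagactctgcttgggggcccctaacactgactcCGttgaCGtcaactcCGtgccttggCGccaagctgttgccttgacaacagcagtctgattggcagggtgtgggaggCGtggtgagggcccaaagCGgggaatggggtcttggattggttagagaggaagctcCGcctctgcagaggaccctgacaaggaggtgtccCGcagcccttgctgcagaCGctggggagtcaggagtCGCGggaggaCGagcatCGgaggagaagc
Meg3: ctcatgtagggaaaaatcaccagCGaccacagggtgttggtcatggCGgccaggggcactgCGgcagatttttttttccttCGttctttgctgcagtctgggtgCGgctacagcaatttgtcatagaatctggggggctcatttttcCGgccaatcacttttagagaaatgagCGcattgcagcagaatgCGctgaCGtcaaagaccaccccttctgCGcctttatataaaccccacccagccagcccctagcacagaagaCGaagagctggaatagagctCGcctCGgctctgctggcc

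The *Mex3b* promoter held 27 CG dinucleotides and the *Cux1* promoter 25, against a median of 7 over the 32851 promoters of this table, and 15.5% and 18.4% of all promoters held at least as many. The *Olfr292* promoter held 0, as did 5.43% of promoters. *Peg3* and *Meg3* each held 13 in these 300 bases. Both were picked by their H3K4me3. *Peg3* had the lowest difference over input of the listed genes methylated in the oocyte, and *Meg3* the highest of those methylated in sperm. That the pair differed in H3K4me3, as described below, thus follows from the choice.

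The 3 cKO H3K4me3 libraries held 12178543, 11361001 and 27773859 reads in autosomal windows in replicates 1, 3 and 4, and the inputs 20924635 and 24799725. The median window held 12, 21 and 49 reads of H3K4me3 and 45 and 52 reads of input, and 1 read more or less weighs most in replicate 1. Reads were scaled to reads per 1000000 reads in autosomal windows (RPM), and a difference below is the mean of log2(RPM + 0.5) over the H3K4me3 libraries minus that over the inputs, which understates the change of low windows. The top 1% of windows, ranked by the mean of the 3 libraries, held 4.70%, 2.56% and 2.85% of the reads in replicates 1, 3 and 4, against 1.49% and 1.60% for the top windows of the inputs. The 99th percentile lay 9.08 times above the median window in replicate 1, 2.86 times in replicate 3 and 3.18 times in replicate 4, against 1.47 and 1.58 times in the inputs. Replicate 1 thus stood apart, with a lower level in the median window (0.985 RPM, against 1.85 and 1.76) and higher levels in the top windows. The log2 levels of the H3K4me3 libraries correlated across windows with Pearson's r between 0.761 and 0.828, and those of the inputs with 0.477, as a description across windows that are not independent.

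**Figure D1:**
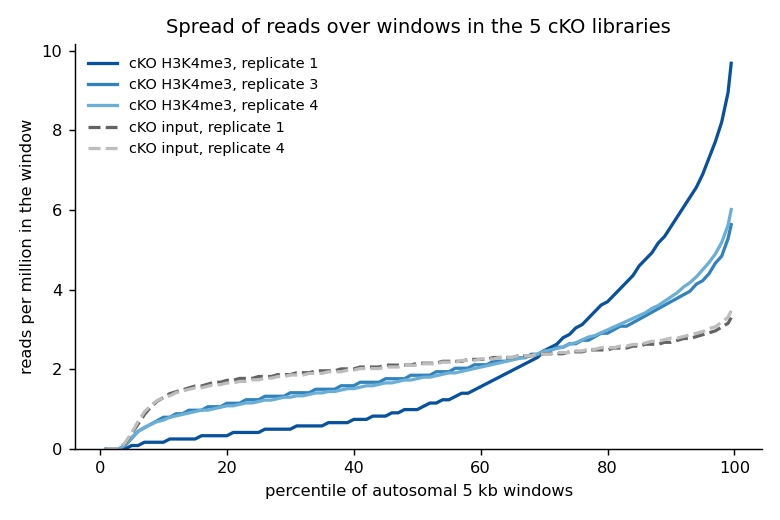
RPM in the window at each percentile of the 492344 autosomal windows, for the 3 cKO H3K4me3 libraries (solid lines) and the 2 cKO input libraries (dashed lines). The inputs rise little from low to high percentiles, while the H3K4me3 libraries start lower and end higher, replicate 1 most of all.

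H3K4me3 of the cKO was above input in a minority of windows and somewhat below it in most of the genome. Every H3K4me3 library lay above both inputs in 107925 windows (22.6%) and below both in 186617 windows (39.1%), and every library lay at least 2-fold above the higher input in 8349 windows (1.75%). The last number was 8524 without H3K4me3 replicate 1, 20117 without replicate 3, 13425 without replicate 4, 22159 without input replicate 1 and 14602 without input replicate 4. In the limma test with an intensity trend, at adjusted p under 0.05, 38634 windows were above input, with a background rate of 8.1% of windows tested, and 5376 were below (1.13%). The median difference was −0.33 over all windows tested and 1.09 over the windows above input. Because RPM are relative, reads taken by the windows above input lower all others, and the values below input were obtained on that scale, while with each library scaled to its own median window the median of all windows was 0.04. These numbers of calls were not stable, since 857 windows were above and 324 below by edgeR on the same reads, 113 and 34 by limma without input replicate 1, 1 and 11 without input replicate 4, and 0 by limma without the intensity trend, where 160525 windows had an unadjusted p under 0.05. The levels in each library are given first in what follows, and the calls beside them.

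Replicates shared their strongest windows in part. Of the 4923 windows that make up the top 1% of each library, replicates 1 and 4 shared 1868 (37.9%), replicates 1 and 3 shared 1277 (25.9%) and replicates 3 and 4 shared 1339 (27.2%), against 284 (5.77%) for the inputs. The 684 windows in the top 1% of all 3 libraries were 252 promoters of any gene, 226 gene bodies and 206 intergenic windows, with a median of 83 CpG per window. Of all windows tested, 9.29% were promoters of any gene, 45.1% gene bodies and 45.6% intergenic.

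Promoters carried the mark most often, but most windows above input were elsewhere. Of the 19042 windows tested that held the start of a protein-coding gene in GENCODE M21, 7359 were above input (38.6%) and 73 below (0.383%), and the median level was 5.01, 3.26 and 3.53 RPM in H3K4me3 replicates 1, 3 and 4, against 2.15 and 2.06 RPM in input. Among windows holding the start of any annotated gene, 22.8% were above input. In gene bodies without a promoter 6.21% of windows were above input and in intergenic windows 6.97%. Because these classes are far larger, promoters of any gene made 26.2% of all windows above input, gene bodies 34.5% and intergenic windows 39.3%. The median level of intergenic windows was 1.07, 1.76 and 1.69 RPM in the H3K4me3 libraries and 2.05 and 2.10 RPM in input, so the typical intergenic window lay below input in each library.

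The level of H3K4me3 rose with the CpG count of the window in each of the 3 libraries. In the decile of windows with the fewest CpG (median 15 per window) the median level was 0.575, 1.41 and 1.30 RPM in replicates 1, 3 and 4, and in the decile with the most (median 89) it was 3.12, 2.73 and 2.92 RPM. Input changed little, from 2.01 to 2.20 RPM in replicate 1 and from 2.10 to 2.06 RPM in replicate 4. The share of windows above input rose from 1.28% to 26.7% between these deciles, and the share below fell from 1.90% to 0.701%. The windows above input had a median of 58 CpG, those below 30 and all windows tested 36. In the richest decile, promoter windows were above input more often (48.7%) than other windows (16.5%), as a description without a test.

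**Figure D2:**
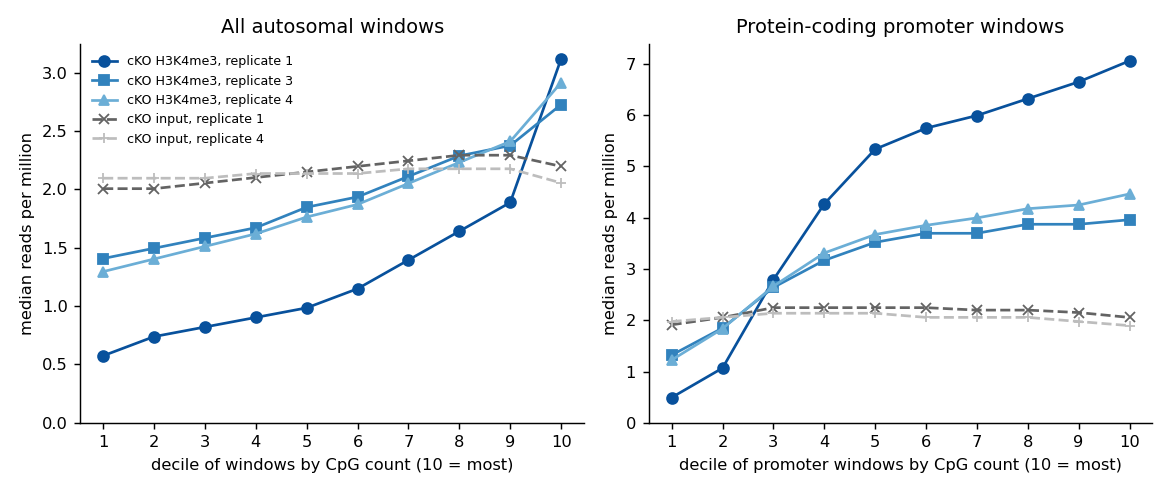
Median RPM by decile of CpG count, for all autosomal windows (left) and for windows holding the start of a protein-coding gene (right), with 1 line per cKO library. H3K4me3 lines rise from left to right and cross the flat input lines, at the high deciles for all windows and at the third decile for promoters.

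Promoter windows followed the same order. In the decile of promoter windows with the fewest CpG (3 to 24 per window) the median level was 0.493, 1.32 and 1.22 RPM of H3K4me3 and 1.10% were above input, and in the decile with the most (175 to 443) it was 7.06, 3.96 and 4.46 RPM and 76.0% were above. In this richest decile every H3K4me3 library was above both inputs at 95.4% of windows. Of the 9521 promoter windows in the 5 deciles with the most CpG, 90 (0.945%) had every H3K4me3 library below both inputs, and 1 of them, at *Akap12*, was called below input.

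A few of these 90 CpG-rich promoters without enrichment were those of imprinted genes, and most were of other genes. Some had little input, such as Gm3435 with 0.0956 and 0.0806 RPM, where the level of the mark is uncertain. *Mcts2*, a retrogene expressed from the paternal allele, had 0.657, 1.58 and 1.33 RPM of H3K4me3 and 2.82 and 2.86 RPM of input in a window with 118 CpG (difference −1.03 ± 0.39, SE). The window shared by *Peg3* and *Usp29* had 0.411, 0.968 and 0.972 RPM of H3K4me3 and 2.34 and 1.73 RPM of input at 98 CpG. In both, all 3 H3K4me3 libraries were below both inputs, although neither passed the test (limma, adjusted p = 0.0675 and 0.141). *Akap12*, which encodes a scaffold for protein kinase A, had 0.493, 2.02 and 1.80 RPM of H3K4me3 and 3.06 and 3.31 RPM of input at 132 CpG (limma, adjusted p = 0.0372). *Mcts2* and *Akap12* are named here after their values were seen.

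The reverse case, a CpG-poor promoter above input, was met in 21 of the 1905 windows of the poorest promoter decile. They included *Esp4*, which encodes an exocrine gland-secreted peptide, with 5.83, 2.55 and 4.00 RPM of H3K4me3 and 1.96 and 1.17 RPM of input at 22 CpG, and *Olfr720*, with 4.19, 2.99 and 3.74 RPM and 1.43 and 1.45 RPM at 11 CpG. Both are named after their values were seen, and in each the H3K4me3 libraries did not overlap the inputs.

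By the mean level of the 3 libraries, the highest window of H3K4me3 in the cKO was the promoter window of *Gdf9*, an oocyte-secreted growth factor needed for follicle growth, on chromosome 11 (chr11:53430001-53435000), which also overlaps *Uqcrq*, a gene of the respiratory chain. In replicate 1 the highest window was the one near *Abt1*, with 16.3 RPM, and in replicate 4 that of *Evpl*, with 8.57 RPM. The *Gdf9* window held 13.6, 9.07 and 7.63 RPM in H3K4me3 replicates 1, 3 and 4. Its input was high as well, with 3.54 and 3.10 RPM in the cKO, at the 99.9th and 97.1st percentiles of all windows, against 2.24 and 1.92 RPM in the WT inputs, a ratio of the means of 1.60. The *Gdf9*-Cre transgene of the cKO carries promoter sequence of this gene, and reads from it cannot be told apart from those of the locus. Its difference over input was 1.44 ± 0.84 (SE), which did not pass the test (limma, adjusted p = 0.193), and the adjacent window toward the end of the chromosome, with 7.23, 6.07 and 6.12 RPM of H3K4me3 and 2.15 and 2.70 RPM of input, did (adjusted p = 0.0421). The 10 highest windows by mean level also held those of *Rnf213* and *Mex3b* and an intergenic window near *Abt1*. *Scrt1*, a neural zinc finger gene, *Per1*, a gene of the circadian clock, and *Evpl*, which encodes envoplakin, lay among them too.

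The largest difference over input among promoter windows was at *Mex3b*, which encodes an RNA-binding protein (chr7:82865001-82870000, 358 CpG). It had 14.5, 5.55 and 7.96 RPM in H3K4me3 replicates 1, 3 and 4 and 1.62 and 1.09 RPM in input, a difference of 2.32 ± 0.41 (SE, limma, adjusted p = 0.000231). *Cux1*, a homeobox transcription factor gene on chromosome 5, had 10.8, 6.07 and 6.62 RPM and an input of 1.29 RPM in both libraries, a difference of 2.17 ± 0.36. *Hic1*, a zinc finger repressor gene on chromosome 11, had 11.4, 5.72 and 5.98 RPM against the same input level of 1.29 RPM, a difference of 2.13 ± 0.35. At all 3 genes the lowest H3K4me3 library was above the higher input, as the rule for naming windows required.

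The window shared by *Hes7*, a repressor of the segmentation clock, and 9130213A22Rik had 13.1, 4.58 and 7.24 RPM of H3K4me3 and 2.20 and 0.806 RPM of input. *Cyp26a1*, whose enzyme degrades retinoic acid, had 10.8, 5.81 and 6.66 RPM and 1.48 and 1.29 RPM, and *Fgf9*, a growth factor gene, had 11.8, 4.75 and 6.77 RPM and 1.39 and 1.37 RPM. The HMG-box gene *Tox2*, the ubiquitin ligase gene *Rnf213*, *Prdm6*, which encodes a PR domain protein, and the homeobox gene *Otx1* followed, with differences from 2.00 to 2.07. Replicate 1 was the highest library and replicate 3 the lowest at each of these 11 genes. Their mean input was 1.29 to 1.98 RPM, below the 2.15 and 2.10 RPM of the median window, and ranking by difference favours low input. None of the 11 passed with edgeR (adjusted p from 0.0733 to 0.0945), in limma without input replicate 1 (adjusted p from 0.0775 to 0.554) or without input replicate 4 (0.585 to 0.612). Nor did any pass in limma with windows without reads fitted too, the test as first planned (adjusted p from 0.165 to 0.166), with median scaling (0.231 to 0.332) or without the intensity trend (0.0914).

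**Figure D3:**
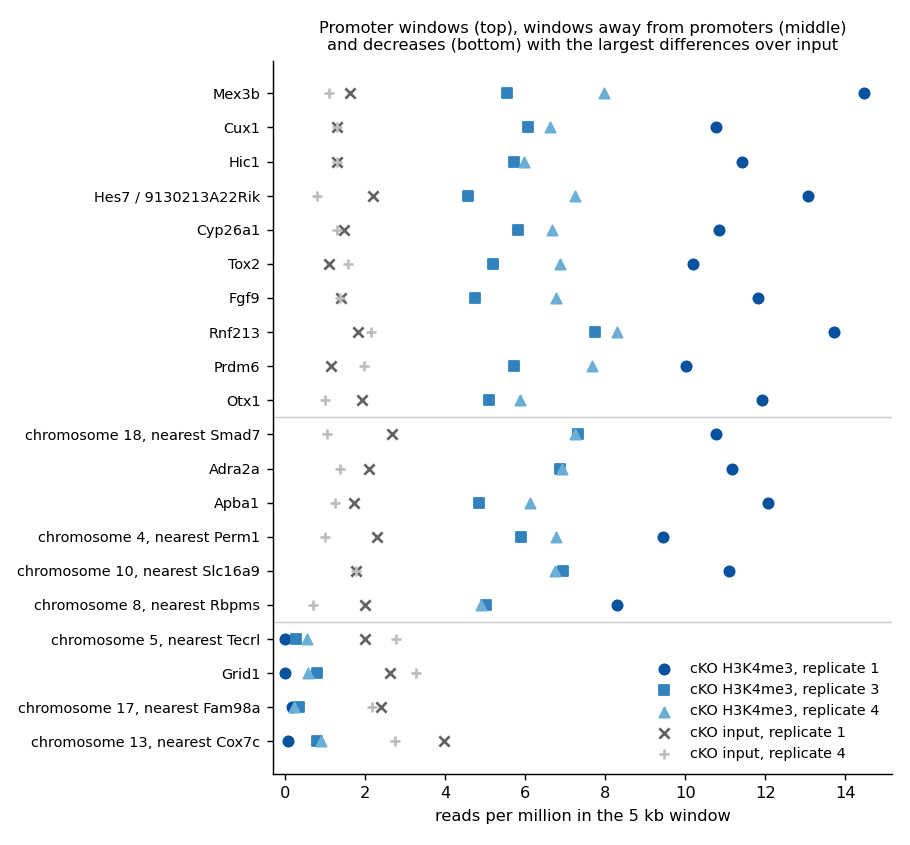
RPM in each cKO library for the promoter windows with the largest differences over input (top), windows away from promoters (middle) and windows with the largest decreases (bottom), with 1 symbol per library. The H3K4me3 symbols lie above both input symbols in the upper blocks and below them in the lowest block, as the rule for naming required. Replicate 1 is the highest in the upper blocks.

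Windows outside promoters were among the most enriched as well. A window that overlaps *Adra2a*, an adrenergic receptor gene, had 11.2, 6.87 and 6.91 RPM and 2.10 and 1.37 RPM of input at 279 CpG. A window inside *Apba1*, 103613 bp from its start, had 12.1, 4.84 and 6.12 RPM and 1.72 and 1.25 RPM of input at 76 CpG. Their differences were 1.96 and 1.95. Another 4 lay in intergenic sequence on chromosomes 18, 4, 10 and 8, with differences from 1.89 to 1.99. The nearest starts were those of *Smad7*, *Perm1*, *Slc16a9* and *Rbpms*. Mean input over the 6 windows was 1.35 to 1.86 RPM, again below the median window. Of the 6 such windows named, the one near *Rbpms* alone passed without input replicate 1, and none passed without input replicate 4, with edgeR (adjusted p from 0.0646 to 0.0869), or in the test as first planned, with median scaling or without the trend (limma, adjusted p from 0.0914 to 0.242).

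The 4 largest decreases were in CpG-poor windows, 3 intergenic and 1 inside *Grid1*, a glutamate receptor gene. The window inside *Grid1* had 0, 0.792 and 0.576 RPM of H3K4me3 and 2.63 and 3.27 RPM of input at 25 CpG, and the window on chromosome 5 at chr5:83680001-83685000 had 0, 0.264 and 0.540 RPM and 2.01 and 2.78 RPM at 16 CpG. Their differences were −1.95 ± 0.51 and −1.96 ± 0.49 (SE). At the 4 windows all H3K4me3 libraries were below both inputs, as the rule for naming them required. The mean input of the 4 was 2.28 to 3.35 RPM, above the 2.15 and 2.10 RPM of the median window. Ranking by decrease favours high input. All 4 windows also passed edgeR, with adjusted p from 0.00615 to 0.0129, and none passed in limma without input replicate 1 or without input replicate 4. In limma none passed with a pseudocount of 0.1 (adjusted p from 0.0533 to 0.0649), in the test as first planned (0.165), with median scaling (0.231) or without the trend (0.0914), and without H3K4me3 replicate 4 the window on chromosome 17 did not (0.052).

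Windows above input formed 26803 runs of adjacent windows at the threshold used. Of these, 19226 were single windows (49.8% of all windows above input), and 389 runs were at least 5 windows long and held 5.80% of them. When a single uncalled window was allowed inside a run, the share in runs of at least 5 windows was 22.1%. The longest run was 70 kb, at chr15:98965001-99035000 overlapping the tubulin gene *Tuba1c*, with a mean of 7.69, 4.47 and 4.86 RPM of H3K4me3 and 2.05 and 1.90 RPM of input over its 14 windows. A run of 55 kb that overlaps *Atp5o*, a subunit of ATP synthase, on chromosome 16 had 8.70, 4.91 and 5.53 RPM and 2.15 and 2.10 RPM, and an intergenic run of 55 kb on chromosome 9 had 6.90, 4.19 and 5.01 RPM and 2.11 and 2.10 RPM. A run at *Gpx5* on chromosome 13 was 50 kb long and an intergenic one on chromosome 9 was 45 kb long. In each of these 5, the mean of every H3K4me3 library was above both inputs, but the runs were picked by calls on the same values.

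**Figure D4:**
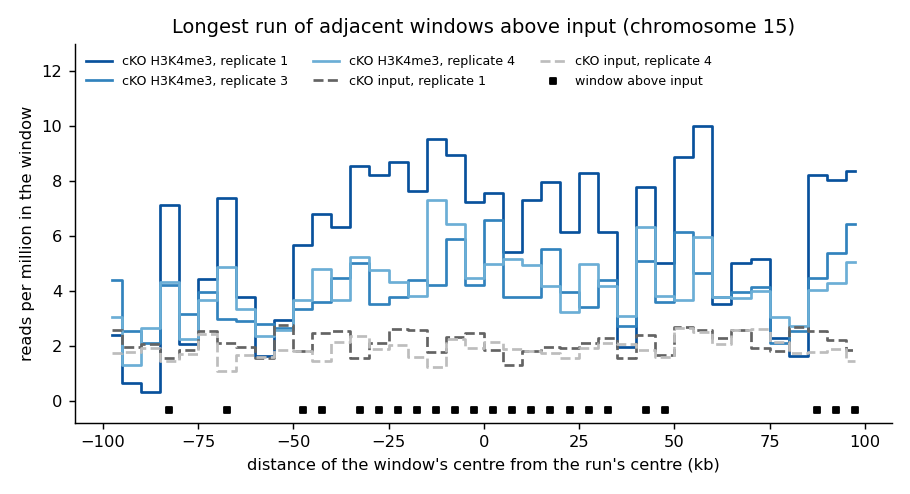
RPM by the distance of each window's centre from the centre of the longest run, within 100 kb, for the 3 H3K4me3 libraries (solid) and the 2 inputs (dashed) of the cKO, with black squares under windows above input. The H3K4me3 lines stay above the inputs over the 70 kb of the run.

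Without the threshold of the test, enrichment was longer. The longest stretch of windows with every H3K4me3 library above both inputs covered 200 kb at chr1:39675001-39875000, around *Rfx8*, and the second 160 kb on chromosome 7, a gene-dense region with *Fgf21*, *Dbp* and *Izumo1*. Of all windows separated in this way, 34.1% were in stretches of at least 5 windows.

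Chromosomes differed in the share of windows above input, from 5.80% on chromosome 14 to 13.5% on chromosome 19, followed by chromosome 11 with 10.8%. The median CpG count per window was 33 on chromosome 14, 41 on chromosome 19 and 43 on chromosome 11. The order of chromosomes did not follow CpG alone, since chromosome 17, with a median of 41, had 7.16% above input.

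The table assigns 213257 of the windows tested to 24597 gene features, and 99.4% of the windows whose gene identifier is in GENCODE M21 overlapped that gene. At least 1 window was above input in 42.6% of features, and 9.20% of windows with a feature and 7.21% of those without were above input. Among the features with at least 4 windows, *Neat1*, a long noncoding RNA that builds paraspeckles, had the highest mean level, with 8.36, 6.0 and 5.72 RPM of H3K4me3 and 2.41 and 2.00 RPM of input over 6 windows, 5 of them above input. *Tead2*, a transcription factor of the Hippo pathway, had 9.22, 5.17 and 5.62 RPM and 2.23 and 1.94 RPM over 4 windows. *Scd2*, a fatty acid desaturase gene, had 8.95, 5.02 and 5.58 RPM over 4 windows and *Folr1*, a folate receptor gene, 8.70, 5.44 and 5.36 RPM over 4, and all windows of both were above input. Only 22 of the 11499 features with at least 4 windows were above input in all of them.

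The lowest features were *Vmn2r36*, Gm3383 and 4 further vomeronasal receptor genes, at mean H3K4me3 levels up to 0.0388 RPM, but their input was at most 0.143 RPM in either library, far below the 2.15 and 2.10 RPM of the median window. They belong to near-identical families, the authors removed reads that do not map to a single place well, and the H3K4me3 of these genes is uncertain. By the sum of RPM above input, the read-through gene model Gm20388, which spans 875 windows, came first with 145 windows above input, and *Slc39a11*, *Mecom*, *Nfib*, *Pitpnc1* and *Pip5k1b*, which are long genes, were among the 10 largest. In *Pitpnc1*, which encodes a phosphatidylinositol transfer protein, 22 of 54 windows were above input, with a mean of 5.30, 3.83 and 4.24 RPM of H3K4me3 and 2.29 and 2.23 RPM of input.

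At the *Setd1b* locus itself H3K4me3 was measured in chromatin, which does not test whether the gene product was lost. The promoter window (chr5:123140001-123145000, 240 CpG) had 5.50, 3.78 and 3.46 RPM of H3K4me3 and 2.25 and 1.69 RPM of input in the cKO, and was above input (difference 0.93 ± 0.29, SE, limma, adjusted p = 0.0281). The WT levels in this window were 10.4, 7.70 and 6.28 RPM, and in the next window, inside the gene, 11.7, 9.75 and 7.64 RPM against 2.05, 2.82 and 2.95 RPM in the cKO. The cKO libraries were below all WT libraries in both windows. The test of the difference over input between genotypes gave −1.39 ± 0.40 (limma, adjusted p = 0.227) and −1.70 ± 0.39 (adjusted p = 0.0847), so neither passed.

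Gene lists were read at the promoter window of each member. The numbers called depended on single libraries and on the scaling, since 0 members were above input in limma without input replicate 1, where 46044 of all windows had an unadjusted p under 0.05, or without input replicate 4, where 32956 had, and edgeR called 3 members, *Meg3*, *Olfr212* and *Vmn2r73*. Without H3K4me3 replicate 4 the number above input moved by over 1.5 times in 11 of the 17 lists, from 30 to 17 of the Hox genes, from 41 to 20 of the ribosomal protein genes, from 9 to 5 of the COMPASS genes and from 4 to 2 of the imprinted genes methylated in sperm. The keratins went from 14 to 26 without replicate 1, and the zona pellucida and oocyte-secreted proteins from 2 to 4 without replicate 3. With median scaling, without the intensity trend, or in the test as first planned, limma called 0 members in every list.

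Of 17 genes of COMPASS enzymes and subunits, *Setd1b* among them, 9 were above input and none below, beside 38.6% of all promoter windows, and at all 17 every H3K4me3 library was above both inputs, beside 66.3% of all promoter windows. *Kmt2d* had 8.46, 6.60 and 5.47 RPM of H3K4me3 against 1.82 and 1.41 RPM of input, and *Kmt2a* had 9.52, 4.58 and 6.08 RPM against 1.58 and 1.57 RPM, which are differences of 1.78 and 1.74. *Kmt2b*, the gene of MLL2, had 6.40, 3.43 and 4.54 RPM and 2.39 and 1.98 RPM, and was above input (difference 0.95), and *Setd1a*, the paralog of *Setd1b*, had 5.50, 4.22 and 4.14 RPM and 2.58 and 2.54 RPM (difference 0.73, limma, adjusted p = 0.112). The median difference of the list was 0.95, and that of all promoter windows 0.74.

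Of the subcortical maternal complex, a protein assembly stored in the egg, 6 of 7 members were above input, beside 38.6% of all promoter windows. The exception was *Nlrp5*, with 5.26, 4.14 and 4.46 RPM of H3K4me3 and 2.10 and 2.78 RPM of input. Among them *Ooep* had 7.72, 5.37 and 4.32 RPM and 2.44 and 1.45 RPM, and *Khdc3* 6.40, 4.84 and 4.72 RPM and 2.15 and 1.41 RPM. Of 8 oocyte transcription factor genes 5 were above input, among them *Figla*, *Lhx8* and *Foxo3*, and their median difference was 1.11. Of 7 genes of zona pellucida and oocyte-secreted proteins 2 were above input, *Zp1* and *Oosp3*, and at 6 every H3K4me3 library was above both inputs, beside 38.6% and 66.3% of all promoter windows. The median difference of this list was 0.83, beside 0.74 for all promoter windows. *Zp3*, the sperm-binding zona protein, had 4.43, 3.43 and 3.10 RPM and 2.58 and 2.18 RPM (difference 0.52, limma, adjusted p = 0.174).

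Of 11 genes of meiotic arrest and resumption 6 were above input, beside 38.6% of all promoter windows, among them *Mos*, the kinase of the cytostatic factor, with 10.1, 3.87 and 6.01 RPM against 1.82 and 2.26 RPM of input. *Gpr3*, the receptor that keeps cyclic AMP high in the arrested oocyte, had 1.72, 2.90 and 2.23 RPM of H3K4me3 and 2.63 and 1.69 RPM of input, with overlapping groups, in a window of 178 CpG. Of 10 genes of DNA methylation and demethylation 5 were above input, beside the same 38.6%, including *Dnmt3a* and *Dnmt3l*, which are needed for methylation of the oocyte genome. *Dnmt3b* was not, with 0.903, 2.64 and 2.56 RPM against 2.53 and 2.06 RPM.

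Imprinted genes were divided by the germline in which their control region is methylated. Of 14 genes with a region methylated in the oocyte, 3 were above input and none was called below, their median difference was −0.45, and 6 had every H3K4me3 library below both inputs, although the median CpG count of their windows was 110. Of all promoter windows 38.6% were above input and 12.4% had every H3K4me3 library below both inputs. At *Nap1l5* the levels were 0.493, 1.14 and 1.22 RPM of H3K4me3 and 1.43 and 3.02 RPM of input (difference −0.89), and at *Zrsr1* 0.411, 2.11 and 1.30 RPM and 2.20 and 2.46 RPM (difference −0.80). All 4 genes with a region methylated in sperm, *H19*, *Meg3*, *Rasgrf1* and *Zdbf2*, were above input, with a median difference of 0.97 and a median of 127 CpG. At *Meg3* the levels were 8.70, 3.34 and 3.96 RPM of H3K4me3 and 1.48 and 1.01 RPM of input (difference 1.64). *Peg3*, whose promoter printed above has the same number of CG dinucleotides, had 0.411, 0.968 and 0.972 RPM of H3K4me3. Both genes are opposite extremes of their lists and were picked as such.

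The 3 exceptions were *Mest* (difference 1.10), *Plagl1* (1.15) and *Impact* (1.40). The window tested holds the outermost annotated start of a gene, which need not be the control region, and whether it is in these 3 was not tested. On the scales of edgeR and of the median window the list methylated in the oocyte had a median of −0.29 and −0.07, and the list methylated in sperm 1.49 and 1.45, beside 1.22 and 1.21 for all promoter windows.

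Promoters of genes that mark other ovarian cells were also read, since a pool of oocytes can hold attached follicle cells. Of 11 granulosa markers 5 were above input, of 7 theca and stroma markers 5 and of 6 blood and immune markers 3, beside 38.6% of all promoter windows, and none was below. The summed level of the granulosa list was 35.6 to 51.4 RPM in the H3K4me3 libraries and 24.4 to 25.6 RPM in input, and none of its members was at 0 in all H3K4me3 libraries. The receptor genes of granulosa cells were low, with 0.821, 2.02 and 0.864 RPM at *Fshr* and 0.821, 1.50 and 2.09 RPM at *Lhcgr*, against 2.34 and 2.10 RPM and 2.77 and 2.78 RPM of input. *Foxl2*, a granulosa transcription factor gene with 310 CpG in its window, had 8.29, 6.25 and 5.33 RPM and was above input (difference 1.46). For the theca and stroma list the sum was 24.9 to 37.4 RPM against 13.5 to 15.3 RPM, and for the blood and immune list 23.8 to 33.3 RPM against 12.2 to 13.7 RPM. The part of follicle or blood cells in these values was not tested.

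The Hox genes, which pattern the body axis of the embryo, had the highest median difference of the 17 lists on this scale (1.14), while in edgeR the oocyte transcription factors had 1.70 and the Hox genes 1.67. Of 39 Hox genes, in 36 distinct windows, 30 were above input and at all 39 every H3K4me3 library was above both inputs, beside 38.6% and 66.3% of all promoter windows. *Hoxa7* had 6.57, 5.11 and 4.39 RPM of H3K4me3 and 1.58 and 1.05 RPM of input (difference 1.69), and *Hoxb3*, the lowest, 1.81, 2.11 and 2.38 RPM and 1.67 and 1.37 RPM (difference 0.36). Of genes used by every cell, 41 of 76 ribosomal protein genes were above input, with a median difference of 0.90, and 19 of 48 proteasome genes, with 0.81, beside 38.6% and 0.74 for all promoter windows, so that the proteasome was near the background. *Rpl3* had 10.2, 6.25 and 6.52 RPM and 2.58 and 1.77 RPM of input, while *Rps2* had 1.97, 2.82 and 2.77 RPM and 2.82 and 2.50 RPM. *Psmb4* had 9.85, 5.46 and 5.62 RPM and 2.72 and 1.13 RPM, while *Psma6* had 1.07, 1.85 and 1.48 RPM against 2.63 and 2.90 RPM.

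The large clustered receptor families were at the other end. Of 1086 olfactory receptor genes tested, 20 were above input and 15 below, 683 had every H3K4me3 library below both inputs, and the median level was 0.575, 1.32 and 1.26 RPM of H3K4me3 against 1.96 and 2.02 RPM of input (median difference −0.71, median of 19 CpG per window). The shares over all promoter windows were 38.6% above, 0.383% below and 12.4% with every library below both inputs. *Olfr292*, whose promoter is printed above, had 0, 0.616 and 0.828 RPM and 2.15 and 2.38 RPM. Of 311 vomeronasal receptor genes 4 were above and 14 below, with a median difference of −0.62. Members above input included *Olfr976*, with 6.16, 4.40 and 4.54 RPM and 1.29 and 2.14 RPM, and *Vmn1r4*, with 9.20, 4.22 and 5.94 RPM and 2.01 and 2.30 RPM in a window of 124 CpG. Of 110 keratin and keratin-associated genes 14 were above input and none below, among them *Krt18* and *Krt71*, and their median difference of −0.10 turned to 0.29 with median scaling and 0.07 in edgeR. The other 16 lists kept the sign of their median under both.

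**Figure D5:**
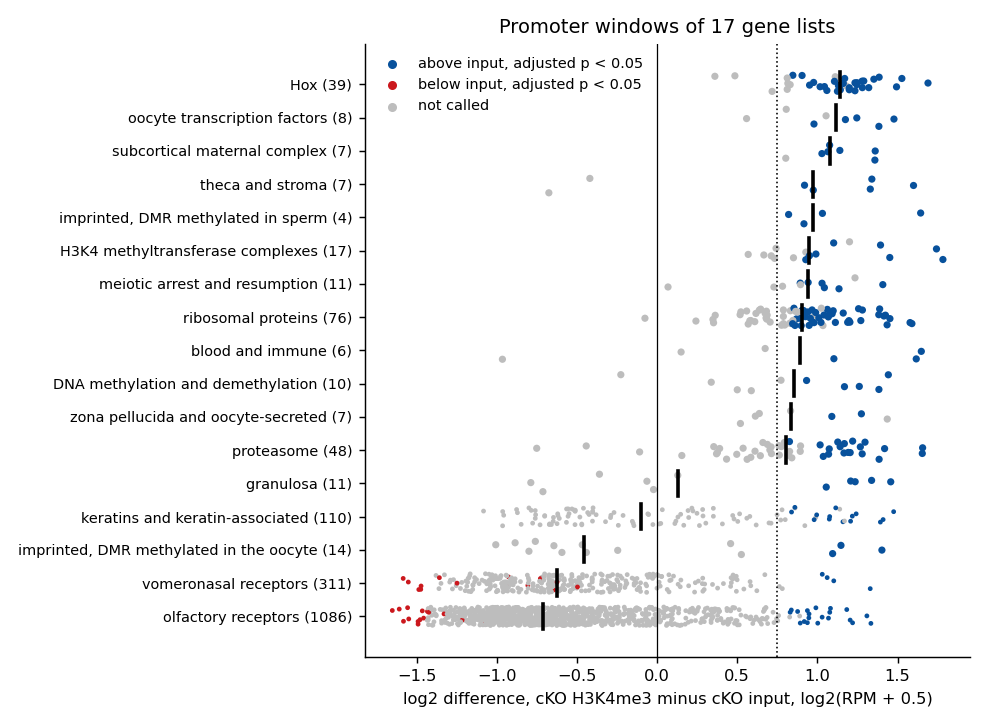
Difference over input, cKO H3K4me3 minus cKO input in log2(RPM + 0.5), at the promoter window of each member of 17 gene lists, with blue points above input, red points below and grey points not called, and a black bar at the median of each list. The dotted line is the median of all protein-coding promoter windows (0.74), and the medians of both receptor families, the imprinted genes methylated in the oocyte, the keratins and the granulosa markers lie to its left.

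Whether the enrichment over input differed from that of WT oocytes was tested with the interaction of genotype and immunoprecipitation over 10 libraries. Among 477205 windows 134 (0.0281%) had a higher enrichment in the cKO and 42 (0.0088%) a lower one. None of the named promoter or other windows above passed this test, and of the members of the 17 lists *Vmn1r27* alone did. In the 134 windows the median level was 5.62, 3.96 and 3.89 RPM in the cKO H3K4me3 libraries and 0.648, 1.17 and 1.02 RPM in the WT ones. Their median input went the other way, with 2.20 and 2.10 RPM in the cKO and 2.60 and 2.56 RPM in the WT. Of the 134, 91 were in gene bodies, which made 45.1% of all windows compared with input, and 69 were above input in the cKO. *Cep131*, a centrosome gene, had 5.75, 5.11 and 3.92 RPM in the cKO and 0.243, 0.682 and 0.518 RPM in the WT (interaction 2.60 ± 0.39, limma, adjusted p = 0.00355). *Prkag2*, a subunit of AMP-activated kinase, had 0.903, 2.11 and 2.20 RPM in the cKO and 9.64, 6.63 and 7.44 RPM in the WT (−2.32 ± 0.38, adjusted p = 0.00505), and was not above input in the cKO. With 1 library left out at a time the total of 176 windows moved between 5, without WT input replicate 4, and 931, without WT H3K4me3 replicate 2.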

How the data were processed

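H3K4me3 and input were profiled by ULI-nChIP-seq, native chromatin digested with micrococcal nuclease. The authors trimmed reads with Trim Galore 0.4.2, mapped them to GRCm38 with Bowtie2 2.2.9, removed mappings of quality under 20 and counted them in 5 kb windows with SeqMonk. What the authors deposited for H3K4me3 is a score on a linear scale (RPKM after enrichment normalization), and for input a signal, RPM per window. Every value was a whole number of equal steps (tolerance 0.05 of a step, 100% of values), which gave the reads. Reads across a border can count in both windows, duplicates cannot be told apart, and counting intervals cover counting error only. Libraries that the authors left out for poor enrichment are not analysed here. Replicates are biological per the labels.

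The test was limma 3.58.1 (R 4.3.3) on log2(RPM + 0.5), with an intensity trend, two-sided, Benjamini-Hochberg adjusted, without a replicate block. Windows without a read in the libraries compared were left out. This departs from the planned test and was chosen after seeing the data, with numbers of calls in view. It followed an earlier simulation, whose values are not given here, in which those windows broke the variance estimate. A simulation with the main test, for the cKO comparison over 492344 windows, changed 100 windows 2-fold and 100 windows 4-fold, up or down. It used the same dispersion for all libraries, and 62% of windows changed 4-fold and 1% of those changed 2-fold were recovered. In the data many more windows were called and replicate 1 was more enriched than the others. These rates therefore do not give the power of the test on the real libraries. Alternatives are given in the closing section, with edgeR 4.0.16 among them. Genes came from GENCODE M21 and CpG counts from GRCm38.p6, whose 21 chromosome ends matched the windows. A promoter window holds the start of a gene. Named are the 12 promoters, 8 other windows and 4 decreases with the largest differences (called, libraries not overlapping, mean input at least 0.5 RPM), the 6 longest runs, and list members, except 1 promoter, 2 other windows and 1 run that are not reported here. Windows and gene features ranked by level, and the examples from the *Setd1b* locus and the genotype comparison, were added after seeing the data. Members and lists were chosen with earlier results of these data known. Scripts ran in Python 3.11.15 with matplotlib 3.10.9, pandas 2.3.3 and numpy 2.4.6.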

Additional observations from a re-analysis of the deposited data

Results flagged for a closer look

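Enrichment over input differed between genotypes, by the interaction in limma, in 134 windows that were higher and 42 windows that were lower in the cKO than in the WT. In every one of them the 3 cKO H3K4me3 libraries lay on one side of the 3 WT libraries. The windows were picked by a test on these same libraries, so this separation is no further support. The 42 lower windows had a median H3K4me3 of 1.19, 1.58 and 1.80 RPM in the cKO and 5.55, 4.53 and 4.93 RPM in the WT. Their median input went the other way, with 2.37 and 2.54 RPM in the cKO and 1.91 and 1.72 RPM in the WT. None was above input in the cKO.

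Chromosome X was outside the comparison of autosomes. When it was fitted with them, 1170 of 31685 windows (3.69%) were above input in the cKO and 758 (2.39%) below, at a median of 24 CpG per window and a median difference of −0.51. On chromosome Y, 0 of 323 windows were above input by limma.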

How the results depend on the processing

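The numbers of windows called depended strongly on the processing. Left out in turn, the 5 cKO libraries gave from 1 to 59685 windows above input (38634 with all) and from 11 to 55570 below (5376 with all), the lowest without input replicate 4 and the highest without H3K4me3 replicate 1. In the same fits the share of promoter windows above input ranged from 0% (without input replicate 4, and 0.152% without input replicate 1) to 50.1%. The share of windows above input in runs of at least 5 windows ranged from 0% to 18.7%, with no value for the 1 window called without input replicate 4. A lone input is assumed to vary like the H3K4me3 libraries. By edgeR 857 windows were above and 324 below, with 0.364% of promoter windows above and 0% in such runs, and 72.6% of its calls were above against 87.8% in limma. When windows without reads were fitted too, which is the test as first planned, 13 were above and 105 below, with 0.00521% of promoter windows and 0% in runs. With scaling to the median window 0 windows were above and 0 below in limma (101080 at unadjusted p under 0.05), and without the intensity trend also 0 and 0 (160525), so that 0% of promoter windows were above in both and neither gave a share in runs. With a pseudocount of 0.1, 194 were below and 3.31% were in runs, and with 1, 13133 were below. At adjusted p under 0.01, 9290 were above and 115 below, with 13.7% of promoter windows, 0.215% in runs and a median CpG content (log2 of the CpG frequency over that of the genome) of 0.73 against 0.50. A 2-fold limit left 3.52% in runs, and bridging 1 window gave 22.1%. The promoter share was 21.4% for starts ± 500 bp of any gene and 22.8% for windows holding the start of any gene. The cause of these changes was not tested.

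The 176 windows differing between genotypes became 726 by edgeR, 7 with empty windows, 284 with a mean of at least 10 reads, 384 with a pseudocount of 1, and 0 in limma with a pseudocount of 0.1 (28658 at unadjusted p under 0.05), median scaling (21975) and no trend (24029). With 1 library left out they ranged from 5 to 931. The labels link the H3K4me3 and input libraries only by a replicate number. The deviations of same-numbered libraries correlated with 0.0491 and 0.0467. With 2 inputs these deviations mirror each other, and windows hold few reads, so this cannot show whether the libraries were paired. With the replicate number as a block, 9.21% of windows above input were in runs and 1642 windows differed between genotypes, and the share of promoter windows above input was 44.9%.

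Under all alternatives, 209 results of named windows kept the direction and the call, 127 kept the direction only, and 0 changed direction. The direction was largely fixed in advance, since windows were named only where H3K4me3 and input libraries did not overlap. Several alternatives also reuse the same difference. The window shared by *Hes7* and 9130213A22Rik was counted for each gene. Of the numbers called per gene list, 131 stayed within 1.5 times and 141 did not. Depth limits single windows most in H3K4me3 replicates 1 and 3, with a median of 12 and 21 reads.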
